A study of Mus musculus with 9 samples.

Results

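The 10 genes described here serve the secretory pathway that carries matrix proteins out of the cell: the transcription factor genes Creb3l1, Creb3l2 and Xbp1, the vesicle coat genes Sec13, Sec23a and Sec24d, the chaperone genes Hspa5 and Hsp90b1, and the retrieval receptor genes Kdelr2 and Kdelr3. They were chosen by symbol: every probe set that the annotation of the Affymetrix mouse array assigns to these symbols was taken, which gave 18 probe sets of 45037 that are not array controls. All 10 genes were found among 18193 genes. Of these, 5 have 1 probe set and 5 have several, and the brightest probe set on average over the 9 arrays stands for its gene. The samples came from mouse embryos at embryonic day 16.5 and form 3 groups of 3 arrays: the condyle (the rounded end of the mandible in the temporomandibular joint), the fossa (the socket it sits in) and the whole body. Per the labels, all 3 groups share the age, a treatment entry of laser capture from frozen tissue and 1 RNA isolation kit; strain, sex and the embryo behind each sample are not given in the sources used here. The 3 arrays of a group are called biological triplicates in the design text, and the p-values cover the spread from sample to sample alone.

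Collagens and proteoglycans are made in the endoplasmic reticulum, folded there by chaperones, and packed into vesicles that bud under the COPII protein coat towards the Golgi. Chaperones that escape carry a short retrieval signal at their end, which KDEL receptors bind in the Golgi so that COPI-coated vesicles can return them. Transcription factors of the unfolded protein response and the related CREB3-like factors, which are cut free from the membrane of the endoplasmic reticulum, raise the output of this machinery. In chondrocytes the factor encoded by Creb3l2 is known to act on Sec23a, and in osteoblasts the factor encoded by Creb3l1 is known to act on Col1a1.

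Of the 10 members, 1 passed the test in each comparison that involves the condyle, where 13.2% of all genes were called against whole body and 18.9% against fossa. Sec13 was 2.00-fold higher in condyle than in whole body and 1.97-fold higher in condyle than in fossa, but both calls ended after quantile normalization (differences of 0.61 and 0.28 on the log2 scale, adjusted p = 0.112 and 0.492). In fossa against whole body limma called 0 members, with 0 at an unadjusted p under 0.05, where 19.6% of all genes were called. Creb3l2, Kdelr3, Sec24d and Hspa5 had higher mean values in condyle than in whole body, with no overlap between the arrays of both groups, but did not pass; with Sec13 this makes 5 of 10 members, where 19.8% of all genes had all condyle arrays above all whole body arrays. The test was limma's moderated test on log2 values, in 1 fit of all 9 arrays, with Benjamini-Hochberg adjusted p under 0.05 over all genes. Each difference below is one of log2 means, ± its standard error (SE); levels are deposited intensities, or log2 intensities as mean ± SD. All 10 members were above background on all 9 arrays through the probe set that stands for the gene, where background is the brightest of 27 bacterial control probe sets on that array. The shares of all genes given beside the members include genes at background.

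The joint samples carried the defining matrix genes of their tissue. The summed intensity of 12 cartilage markers was 11300 to 21900 on the condyle arrays, 9720 to 28000 on the fossa arrays and 1200 to 1250 on the whole body arrays. That of 7 bone markers was 12700 to 52600, 25200 to 52600 and 5530 to 6510 in the same order. The arrays of the joint tissues were less alike than those of the whole body. Condyle array 1 held the highest bone signal of its group (52600, against 15400 and 12700), and fossa array 1 the lowest of its own (25200, against 52600 and 45400). Fossa array 1 also had the fewest probe sets above background (30.3%, against 37.4% to 46.9% on the others) and the smallest mean 3′ minus 5′ difference of the control genes (4.24 on the log2 scale, against 5.56 to 6.78). The 18S control signal separated all joint arrays (5.86 to 9.63 on the log2 scale) from all whole body arrays (13.2 to 13.5), and its part in the differences from whole body was not tested. The 12 epithelial markers summed to 8210 to 21300 on the condyle arrays, 6800 to 7100 in whole body, and 15700, 623 and 10800 on fossa arrays 1, 2 and 3. Of 11 exocrine gland markers, which mark organs rich in secretory cells, 0 were above background on all condyle or fossa arrays and 1 was above it on all whole body arrays. The 9 liver markers were all above background in whole body, with a mean log2 intensity of 11.22 to 11.68, beside 2.76 to 4.27 on the joint arrays. Alb read 5.62 to 24.8 on the joint arrays, while Ttr, the transthyretin gene, reached 38600 on condyle array 3 and 34200 on fossa array 3. The part of these cells in the members' values was not tested, and in such bulk samples fewer cells of a type and less RNA per cell cannot be told apart. Among all genes the share above the whole body depends on the scaling: 70.9% of the genes called in condyle were higher as deposited, 50.4% after quantile normalization and 17% after scaling to the 75th percentile.

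Creb3l1 encodes a CREB3-like factor that acts in osteoblasts. Its intensity was 31.1, 17.6 and 13.7 on the condyle arrays, 15.9, 19.4 and 20.1 on the fossa arrays, and 13.9, 14.4 and 13.4 on the whole body arrays. These values lie close above the background limits of 7.31 to 11.5. The highest is on condyle array 1, which had the most bone signal of its group and also the most osteoclast signal (3360, against 279 and 195) and leukocyte signal (3370, against 346 and 431). Fossa array 2 had the same bone signal and read 19.4 for Creb3l1. The part of these cells was not tested. The 3 fossa arrays lay above the 3 whole body arrays, and condyle array 3 lay among the whole body arrays. The difference from whole body was 0.49 ± 0.28 in condyle (adjusted p = 0.287, limma) and 0.40 ± 0.28 in fossa (adjusted p = 0.361), and that between condyle and fossa 0.09 ± 0.28 (95% interval -0.56 to 0.75). That last sign turned under quantile normalization (-0.47) and under scaling to the 75th percentile (-0.58).

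Creb3l2 encodes the related factor that acts in cartilage. Its intensity was 151, 193 and 44.5 in condyle, 33.7, 64.3 and 33.5 in fossa, and 27.4, 40.6 and 40.7 in whole body. Condyle arrays 1 and 2 stood high, while condyle array 3 was only just above the highest whole body array and below fossa array 2. The mean log2 level was 6.77 ± 1.13 (SD, n = 3) in condyle, 5.38 ± 0.54 in fossa and 5.16 ± 0.33 in the whole body. The difference from whole body was 1.61 ± 0.56 in condyle (3 of 3 arrays above all whole body arrays; adjusted p = 0.113, limma; 95% interval 0.28 to 2.94) and 0.23 ± 0.56 in fossa (adjusted p = 0.819). Condyle exceeded fossa by 1.39 ± 0.56 (adjusted p = 0.135). Without condyle array 3 the condyle difference was 2.26 against whole body (adjusted p = 0.0171) and 2.03 against fossa (adjusted p = 0.0193); without condyle array 2 it was 1.2 (adjusted p = 0.265) and 0.98 (adjusted p = 0.318). With the mean of both probe sets the differences were 0.88 and 0.50. After quantile normalization they were 1.16 (adjusted p = 0.281) and 0.66 (adjusted p = 0.582), and after scaling to the 75th percentile 1.22 and 0.72. With array weights they were 1.64 (adjusted p = 0.045) and 1.68 (adjusted p = 0.0365). The second probe set of Creb3l2 was at background on every condyle and whole body array and above it on 1 fossa array, so it gives no level to compare.

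Xbp1 encodes a main factor of the unfolded protein response and was measured by 4 probe sets. The brightest read 2880, 2800 and 1800 in condyle, 1120, 1940 and 1740 in fossa, and 2040, 2240 and 2560 in whole body. By this probe set condyle and whole body overlapped (0.10 ± 0.26, adjusted p = 0.795, limma; 95% interval -0.51 to 0.72). All 3 fossa arrays lay below all whole body arrays, by a mean of -0.54 ± 0.26 (adjusted p = 0.195), and by 0.02 in the other direction after quantile normalization. The other probe sets did not give the same picture. One of them read 394, 431 and 153 in condyle, 57.1, 137 and 103 in fossa, and 35.4, 43.6 and 112 in whole body, so that condyle lay above both other groups on every array. Its difference from whole body was 2.41 ± 0.60 in condyle (adjusted p = 0.0667 over all probe sets, limma) and 0.74 ± 0.60 in fossa (adjusted p = 0.442). A further one differed by 0.91 ± 0.38 in condyle and 0.02 ± 0.38 in fossa, and the last by -0.25 ± 0.24 and -0.17 ± 0.24. None of the 4 passed in any comparison. The transcript forms that each probe set reads were not analysed here.

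**Figure D1:**
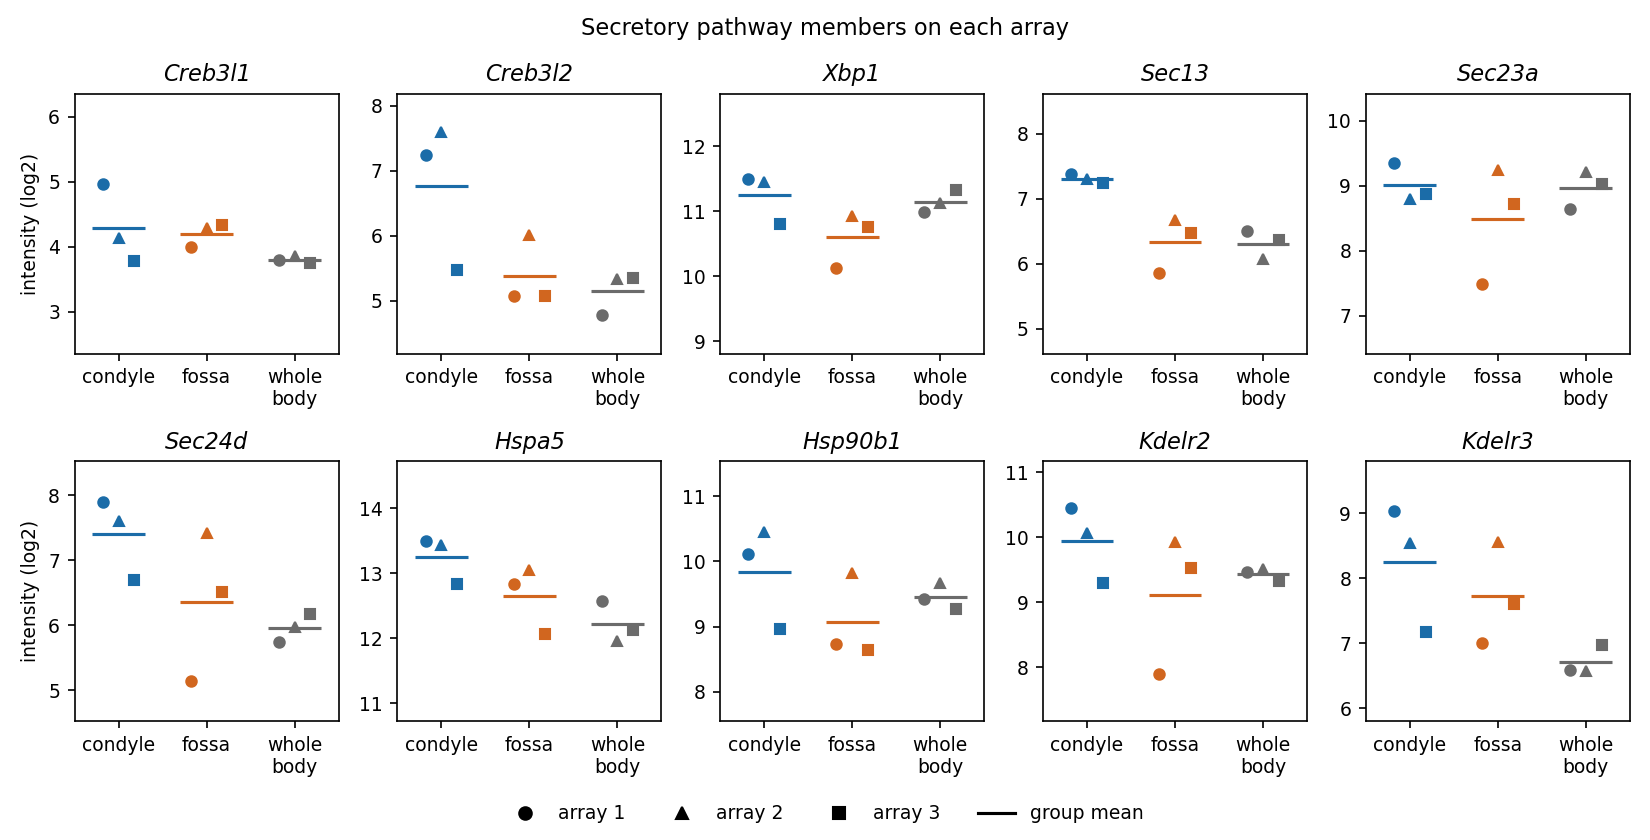
Log2 intensity of the probe set that stands for each of the 10 members on each of the 9 arrays, with a horizontal line at the mean of each group of 3; every panel spans at least 4 log2 units, and levels are not comparable between panels. Sec13 is the member whose condyle arrays lie closest together and above both other groups, while condyle array 3 and fossa array 1 often lie lowest in their group.

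Sec13 encodes a protein of the outer cage of the COPII coat, which also serves in the nuclear pore. Its intensity was 167, 158 and 152 on the condyle arrays, 58, 102 and 88.8 on the fossa arrays, and 90.4, 67.2 and 82.8 on the whole body arrays. The condyle arrays lay close together and above every other array, and fossa and whole body overlapped. The mean log2 level was 7.31 ± 0.07 (SD, n = 3) in condyle, 6.33 ± 0.42 in fossa and 6.31 ± 0.22 in the whole body. Condyle was higher than whole body by 1.00 ± 0.21 (adjusted p = 0.025, limma) and higher than fossa by 0.98 ± 0.21 (adjusted p = 0.0216), both with 3 of 3 arrays above. Fossa and whole body differed by 0.02 ± 0.21 (adjusted p = 0.964; 95% interval -0.48 to 0.52). Sec13 was also the 1 member past the F test for any difference among the 3 groups (adjusted p = 0.0191), which 28.1% of all genes passed. Both condyle calls ended after quantile normalization (0.61 with adjusted p = 0.112, and 0.28 with adjusted p = 0.492), and that against fossa after scaling to the 75th percentile (0.31, adjusted p = 0.252). Leaving out any single condyle array also ended both calls, as did leaving out whole body array 2 or 3 for the comparison with whole body, with adjusted p of 0.0541 to 0.0769 and differences from 0.88 to 1.03.

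Sec23a and Sec24d encode proteins of the inner COPII layer, which activates the budding reaction and selects cargo. Sec23a read 653, 447 and 467 in condyle, 179, 611 and 421 in fossa, and 398, 597 and 522 in whole body. The 3 groups overlapped, with fossa array 1 lowest of all 9. Sec23a differed from whole body by 0.05 ± 0.44 in condyle (adjusted p = 0.944, limma; 95% interval -0.98 to 1.07) and by -0.48 ± 0.44 in fossa (adjusted p = 0.491). Both signs turned after quantile normalization, at -0.07 and 0.06. Without fossa array 1 the fossa difference was 0.02.

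Sec24d read 239, 194 and 104 in condyle, 35.4, 171 and 91.2 in fossa, and 53.6, 62.5 and 72.2 in whole body. All condyle arrays lay above all whole body arrays, and the fossa arrays reached from below the whole body to within the condyle range. The difference from whole body was 1.44 ± 0.57 in condyle (adjusted p = 0.155, limma; 95% interval 0.09 to 2.79) and 0.40 ± 0.57 in fossa (adjusted p = 0.673). Condyle exceeded fossa by 1.04 ± 0.57 (adjusted p = 0.256). After quantile normalization the condyle difference was 1.03 from whole body (adjusted p = 0.314, limma) and 0.30 from fossa (adjusted p = 0.833). That from whole body was 1.57 with array weights (adjusted p = 0.0301). With 1 array left out it ran from 1.19 to 1.79 (adjusted p = 0.0556 to 0.334). With condyle array 3 and fossa array 1 both left out, a choice made after their values were seen, the condyle difference from whole body was 1.79 with adjusted p = 0.0283.

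Hspa5 encodes BiP, the Hsp70 chaperone of the endoplasmic reticulum and a standard readout of the unfolded protein response. Its brightest probe set read 11600, 11000 and 7350 in condyle, 7310, 8450 and 4310 in fossa, and 6110, 3960 and 4480 in whole body. Condyle lay above whole body on every array, and fossa overlapped both. The mean log2 level was 13.26 ± 0.36 (SD, n = 3) in condyle, 12.65 ± 0.51 in fossa and 12.22 ± 0.32 in the whole body. The difference from whole body was 1.04 ± 0.31 in condyle (adjusted p = 0.0705, limma; 95% interval 0.31 to 1.76) and 0.43 ± 0.31 in fossa (adjusted p = 0.374). The condyle difference passed after centring the arrays on the median (1.15, adjusted p = 0.0454), without genes at background (adjusted p = 0.0417), with array weights (1.29, adjusted p = 0.0165) and without fossa array 3 (adjusted p = 0.0428). It was 0.50 with the mean of all 3 probe sets (adjusted p = 0.231) and 0.92 without condyle array 1 (adjusted p = 0.189). It did not pass after quantile normalization (1.06, adjusted p = 0.0882) or after scaling to the 75th percentile (0.64, adjusted p = 0.141).

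The other probe sets of Hspa5 split. The second read 2110, 2040 and 1070 in condyle, 781, 1320 and 574 in fossa, and 1050, 702 and 875 in whole body. Its condyle difference of 0.95 ± 0.38 was close to that of the first, but did not pass (adjusted p = 0.196 over all probe sets, limma). Its name carries a class mark of Affymetrix (_s_at), as does that of the brightest Xbp1 probe set. Signal from other transcripts was not tested for any probe set. The third, of a class that Affymetrix marks as open to signal from other transcripts, read 331, 410 and 329 in condyle, 286, 219 and 196 in fossa, and 496, 478 and 526 in whole body. It therefore ran the other way, with all joint arrays below all whole body arrays. By this probe set fossa was lower than whole body by -1.11 ± 0.15 (adjusted p = 0.00402) and condyle was higher than fossa by 0.62 ± 0.15 (adjusted p = 0.0351), while condyle differed from whole body by -0.49 ± 0.15 (adjusted p = 0.117).

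Hsp90b1 encodes GRP94, the Hsp90 chaperone of the endoplasmic reticulum. Its brightest probe set read 1110, 1400 and 498 in condyle, 426, 907 and 398 in fossa, and 689, 812 and 617 in whole body. In both joint tissues the arrays spread to either side of the whole body. The differences from whole body were 0.39 ± 0.45 in condyle (adjusted p = 0.571, limma) and -0.39 ± 0.45 in fossa (adjusted p = 0.595). The second probe set read 66.4, 119 and 12.8 in condyle, 14, 138 and 57.7 in fossa, and 114, 322 and 266 in whole body, with means lower by -2.20 ± 1.09 and -2.15 ± 1.09 that did not pass. So the probe sets of Hsp90b1 differ in sign for the condyle, and neither gives a call.

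Kdelr2 and Kdelr3 encode KDEL receptors. The brighter probe set of Kdelr2 read 1400, 1070 and 629 in condyle, 237, 971 and 742 in fossa, and 702, 728 and 645 in whole body. Here too the joint arrays spread around a narrow whole body range, and the differences were 0.51 ± 0.54 in condyle (adjusted p = 0.529, limma) and -0.32 ± 0.54 in fossa (adjusted p = 0.725). The dimmer probe set read 63.4, 43.1 and 19.5 in condyle, 30.2, 44.7 and 38.2 in fossa, and 15.2, 11 and 17.9 in whole body. All 6 joint arrays lay above the 3 whole body arrays, by means of 1.39 ± 0.43 in condyle (adjusted p = 0.119 over all probe sets) and 1.37 ± 0.43 in fossa (adjusted p = 0.0748).

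Kdelr3 has 1 probe set, which read 522, 374 and 145 in condyle, 128, 378 and 196 in fossa, and 96.4, 95.7 and 125 in whole body. It was the 1 member whose arrays in both joint tissues all lay above every whole body array by the probe set that stands for the gene, though condyle array 3 and fossa array 1 did so narrowly. The mean log2 level was 8.25 ± 0.96 (SD, n = 3) in condyle, 7.72 ± 0.79 in fossa and 6.71 ± 0.22 in the whole body. The difference from whole body was 1.54 ± 0.55 in condyle (adjusted p = 0.119, limma; 95% interval 0.25 to 2.83) and 1.01 ± 0.55 in fossa (adjusted p = 0.248; 95% interval -0.28 to 2.30). Condyle and fossa differed by 0.53 ± 0.55 (adjusted p = 0.56), which turned to -0.18 after quantile normalization. Without condyle array 3 the condyle difference from whole body was 2.07 (adjusted p = 0.0436), and without condyle array 1 it was 1.15 (adjusted p = 0.285).

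**Figure D2:**
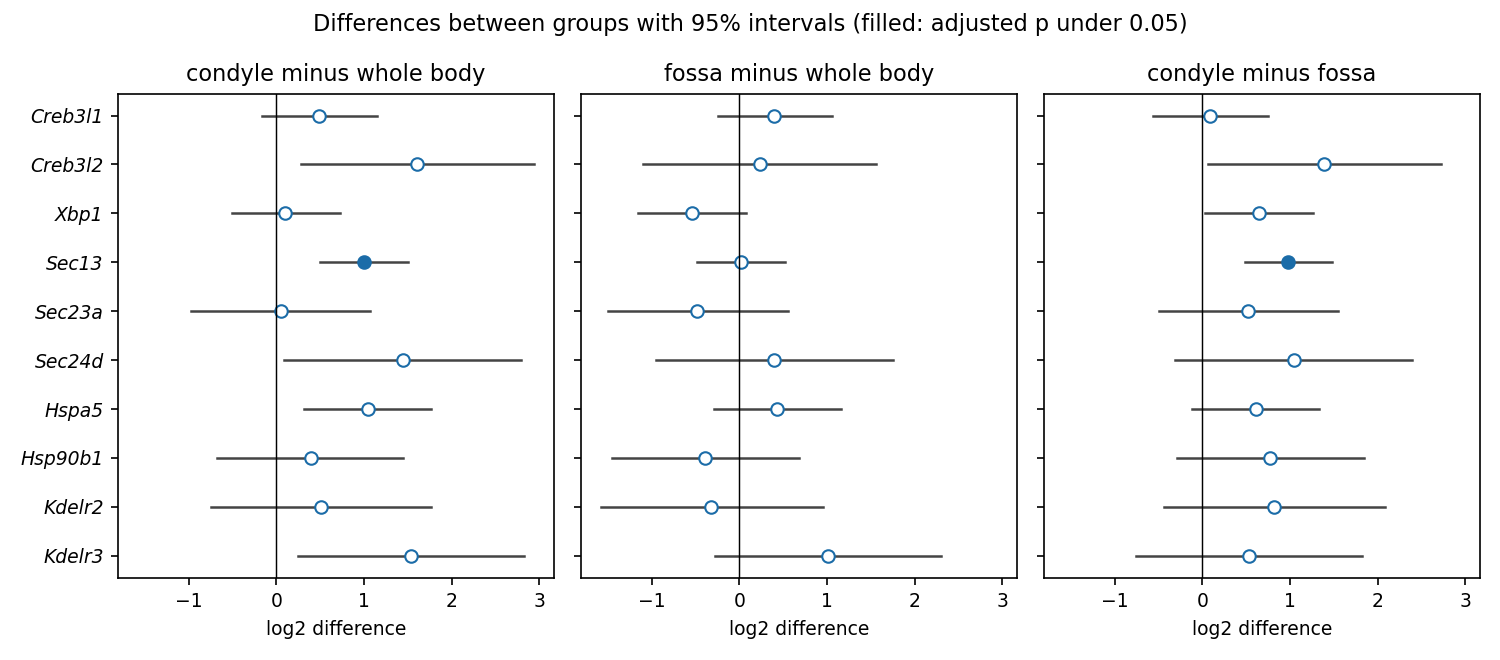
Log2 difference of each of the 10 members in the 3 comparisons, with the 95% interval of the limma fit (not adjusted for the number of genes); filled points have an adjusted p under 0.05. Sec13 is filled against whole body (1.00) and against fossa (0.98), and every interval in the comparison of fossa with whole body includes 0.

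Set against all genes, these counts stand as follows. In condyle against whole body 1 of 10 members was called higher and 0 lower, where 9.34% and 3.84% of all genes were called. At an unadjusted p under 0.05 the comparison holds 5 of 10 members, against 28.1% of all genes. In 5 of 10 members the condyle arrays all lay above the whole body arrays, against 19.8% of all genes, and in 0 members all below, against 33.4%. These shares include genes at background, while all 10 members were above it. The condyle mean was above that of whole body in 10 of 10 members. It was above in 46.6% of all genes and in 64.9% of the 11185 genes above background on all arrays of at least 1 group. In condyle against fossa 1 member was called higher, against 16.8% of all genes, and 3 had an unadjusted p under 0.05, against 33.5%. The arrays of these 2 groups did not overlap in 1 of 10 members, condyle being higher, against 33.9% of all genes.

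In fossa against whole body limma called 0 of 10 members, where 19.6% of all genes were called (3.99% higher and 15.6% lower), and 0 members had an unadjusted p under 0.05, where 33.3% of all genes did. The lowest member p was 0.0742, for Xbp1. The fossa arrays all lay above the whole body arrays in 2 members, Creb3l1 and Kdelr3 (11.1% of all genes), and all below in 1, Xbp1 (31.1%). The median difference over the 10 members was 0.75 in condyle against whole body, 0.12 in fossa against whole body and 0.71 in condyle against fossa. These medians were 0.53, 0.42 and 0.16 after quantile normalization and 0.36, 0.39 and 0.04 after scaling to the 75th percentile. Over the 11185 genes above background on all arrays of at least 1 group, the medians were 0.29, -0.29 and 0.60. The mean of condyle was above that of fossa in 10 of 10 members and in 85.4% of those genes. After quantile normalization it was above in 7 members and after scaling to the 75th percentile in 5. Each comparison shares arrays with both of the others.

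Within the joint tissues most members were lowest or highest on the same arrays. The genes set beside them here were not matched to the members in level. Condyle array 3 was the lowest of the 3 condyle arrays in 9 of 10 members, where it was lowest in 33.8% of genes above background. Fossa array 1 was lowest in 7 of 10 members (41.5% of those genes) and fossa array 2 highest in 9 of 10 (40.2%). The exceptions were Sec23a, lowest on condyle array 2, and Creb3l2, Hspa5 and Hsp90b1, lowest on fossa array 3. Condyle array 3 was not dim as a whole: the mean log2 value over genes above background was 6.32 there and 6.30 and 6.23 on condyle arrays 1 and 2, while the mean over the 10 members was 8.12 there against 9.14 and 8.94. It did stand apart in control signals, with the largest mean 3′ minus 5′ difference of the 9 arrays (6.78, against 6.01 and 6.08 on the other condyle arrays) and the lowest 18S signal (5.86, against 9.63 and 9.33), both on the log2 scale. On fossa arrays 1, 2 and 3 the same means were 5.61, 5.74 and 5.70 for all such genes and 7.41, 8.59 and 7.97 for the members.

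At the median the members also spread more within the joint tissues than genes above background did. The median SD over the 10 members was 0.60 among the condyle arrays, 0.60 among the fossa arrays and 0.22 among the whole body arrays, beside 0.30, 0.36 and 0.29 over the genes above background. Within condyle the SD ran from 0.07 for Sec13 to 1.13 for Creb3l2. Condyle array 3 had the lowest cartilage signal of its group (11300, against 20600 and 21900) and the lowest summed bone and fibrous signal too (12700 and 12900), though the mean log2 value of the bone markers was lower on condyle array 2 (7.45, against 7.77). Fossa array 2, where the members stood highest, had the highest cartilage and bone signal of the fossa arrays (28000 and 52600) and the lowest epithelial signal (623). It also had the highest skeletal muscle (6390), neuron (2820), leukocyte (1990) and endothelial (159) signal of its group. Cartilage signal was 24800 on fossa array 1 and lowest, at 9720, on fossa array 3. Condyle array 3 had the highest skeletal muscle (4610) and neuron (3450) signal of its group. The part of any of these cell types in the members' values was not tested. These array patterns were noticed after the values were seen. With condyle array 3 and fossa array 1 both left out, 5 members were called higher in condyle than in whole body (Creb3l2, Sec13, Sec24d, Kdelr2 and Kdelr3; 7.36% of all genes were) and 2 higher in condyle than in fossa (Creb3l2 and Xbp1; 8.66%). In fossa against whole body 0 were called. Since these arrays were picked for the members' low values, leaving out condyle array 3 raises the condyle means by construction, and nothing is read from these counts.

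**Figure D3:**
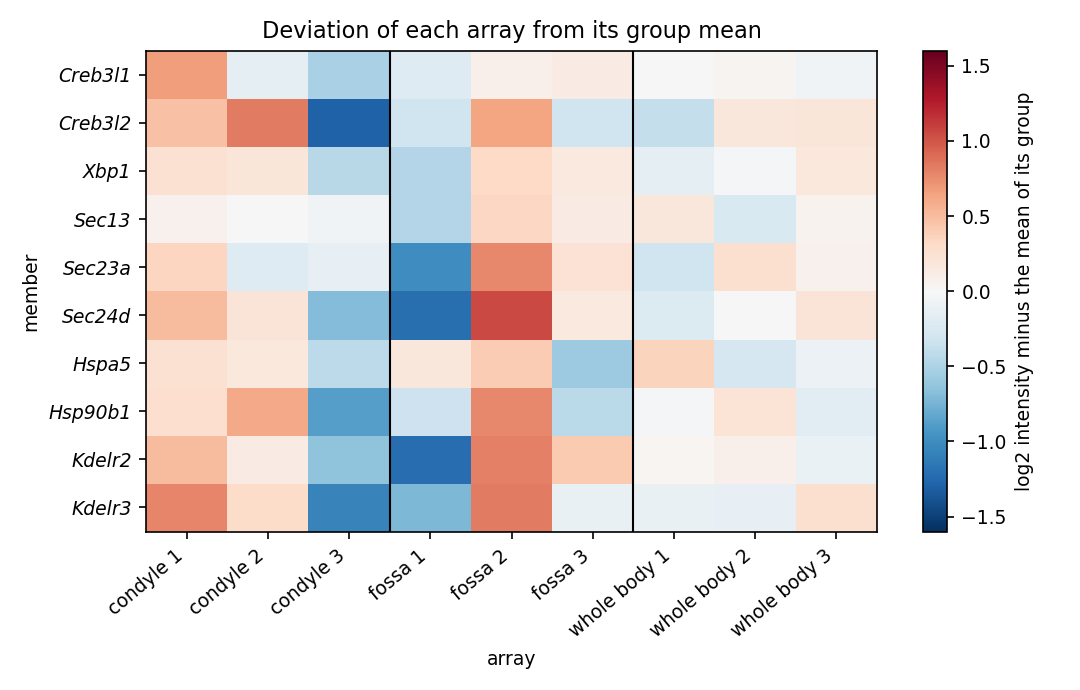
Log2 intensity of each of the 10 members (rows) on each of the 9 arrays (columns) minus the mean of its group of 3 arrays, from blue (below) to red (above). Condyle array 3 is lowest in its group for 9 members and fossa array 1 for 7, while the whole body columns are pale.

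Probe sets of the same gene give a check on single values. Over all 18 probe sets limma called 1 higher in condyle than in whole body (4.21% of all probe sets), 1 lower in fossa than in whole body (13.1%) and 2 higher in condyle than in fossa (12%). The calls belong to Sec13 and to the third probe set of Hspa5. Condyle lay above whole body on average in 15 of 18 probe sets and above fossa in 15 of 18. The probe sets that ran below whole body in condyle were one each of Xbp1, Hspa5 and Hsp90b1.

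**Figure D4:**
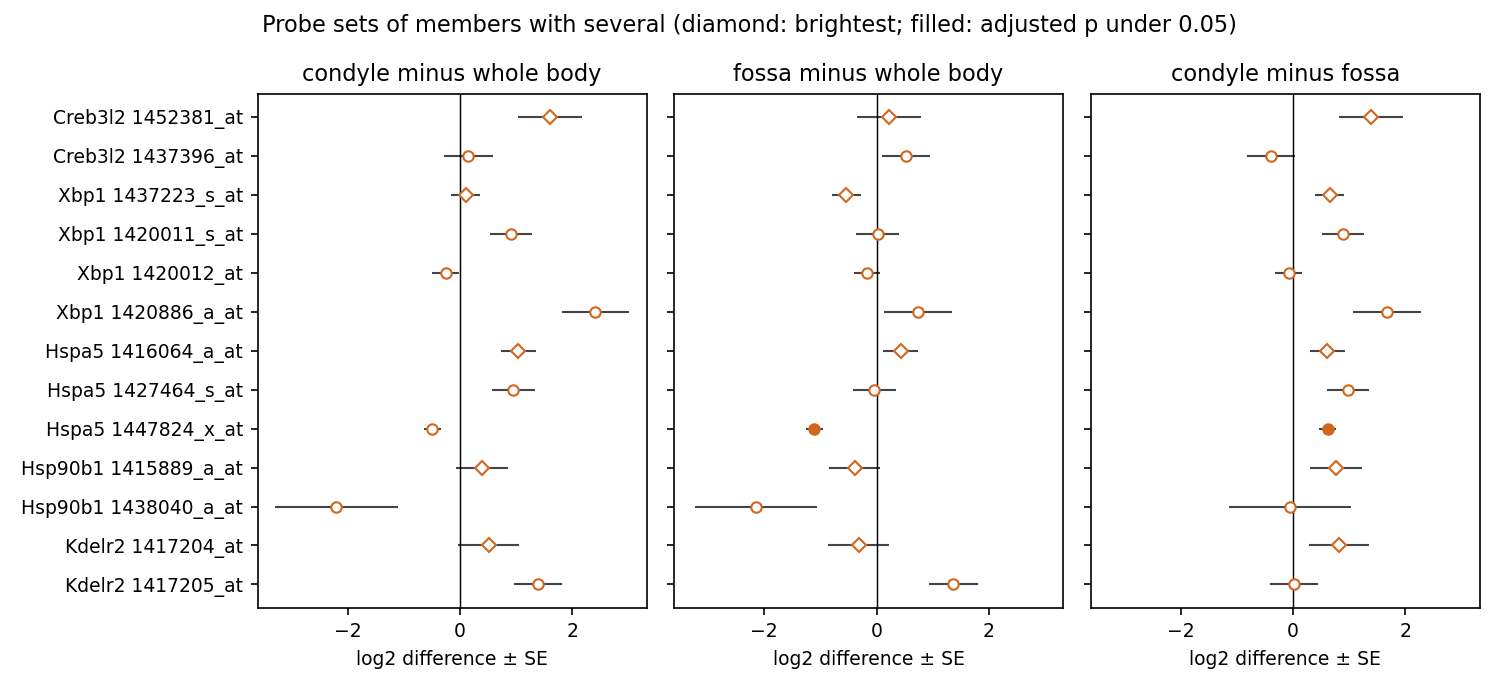
Log2 difference ± SE of the 13 probe sets of the 5 members with several, in the 3 comparisons; diamonds mark the brightest probe set of each gene and filled points an adjusted p under 0.05 over all probe sets. The probe sets of Xbp1, Hspa5 and Hsp90b1 lie on both sides of 0 in condyle against whole body.

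The promoters of 8 members were in the RefSeq table (build GRCm38.p6), each from 250 bases before the gene's start to 50 after it. They are shown because the members include known targets of the factors above, whose sites have a fixed form. The motifs searched, on both strands, were the ERSE element (CCAAT, then any 9 bases, then CCACG), read by ATF6 and XBP1 with NF-Y, the UPRE element TGACGTGG, the full CRE TGACGTCA, the shorter TGACGT that opens both of these, and each end of the ERSE element on its own. TGACGTGG stands in Sec23a, Sec24d and Kdelr3, and in 0.676% of all 32851 promoter windows. In Sec23a it lies after the gene's start, at bases 7 to 14, while in Sec24d and Kdelr3 it ends 18 and 22 bases before the start. TGACGTGG holds the shorter TGACGT, which 5 of the 8 promoters and 7.51% of windows have. Its other strand holds CCACG, which 6 of the 8 and 32.8% of windows have. In Sec13 the CCACG matches lie across the start (bases -2 to 3) and after it (bases 12 to 16). CCAAT was in 4 of the 8 and in 37.4% of windows. In the windows printed here, 5′ to 3′ along the gene's strand, the capitals mark TGACGTGG or its reverse complement in the first 3 and CCACG or its reverse complement in Sec13:
Sec23a (chr12:59012004-59012051, minus strand): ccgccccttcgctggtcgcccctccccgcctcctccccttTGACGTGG
Sec24d (chr3:123267430-123267495, plus strand): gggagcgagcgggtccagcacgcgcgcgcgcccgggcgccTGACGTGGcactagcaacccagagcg
Kdelr3 (chr15:79516338-79516407, plus strand): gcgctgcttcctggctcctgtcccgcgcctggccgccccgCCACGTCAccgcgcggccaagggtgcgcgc
Sec13 (chr6:113740666-113740723, minus strand): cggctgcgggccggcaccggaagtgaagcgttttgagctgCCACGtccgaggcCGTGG

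The ERSE letters stand in both chaperone genes, once in Hspa5 and in both directions in Hsp90b1, and in 0.119% of all windows. In Hspa5 the match ends 46 bases before the gene's start, and a TGACGT lies farther upstream, also in capitals. Creb3l2 has a TGACGT as well. The full TGACGTCA was in 0 of the 8 promoters and in 1.79% of all windows. A match describes these letters only, and is not a measured site:
Hspa5 (chr2:34771893-34772083, plus strand): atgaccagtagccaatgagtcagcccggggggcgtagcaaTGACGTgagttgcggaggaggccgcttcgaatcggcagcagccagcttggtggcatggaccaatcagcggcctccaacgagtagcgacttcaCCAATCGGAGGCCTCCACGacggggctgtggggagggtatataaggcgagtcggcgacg
Hsp90b1 (chr10:86705493-86705694, minus strand): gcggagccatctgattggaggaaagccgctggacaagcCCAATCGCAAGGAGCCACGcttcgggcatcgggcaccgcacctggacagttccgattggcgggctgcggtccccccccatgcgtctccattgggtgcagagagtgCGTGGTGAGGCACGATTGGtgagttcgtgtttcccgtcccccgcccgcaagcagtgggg
Creb3l2 (chr6:37442299-37442384, minus strand): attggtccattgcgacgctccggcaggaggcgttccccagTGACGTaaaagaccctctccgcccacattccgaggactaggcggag

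The members with TGACGTGG had condyle differences from whole body of 0.05 for Sec23a (95% interval -0.98 to 1.07), 1.44 for Sec24d (0.09 to 2.79) and 1.54 for Kdelr3 (0.25 to 2.83), with intervals that overlap. Both chaperone genes with ERSE letters had brightest probe sets at 1.04 (Hspa5) and 0.39 (Hsp90b1). None of these values passed the test, and differences between members were not tested.

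For the 3 factor genes, the genes with the most similar profile over the 9 arrays were found among 11184 others, as the smallest root mean square (RMS) difference in log2 after each gene was centred on its own mean. For Creb3l2 they were Prrx1 (RMS 0.246), a homeobox gene of limb and facial mesenchyme, Smoc1 (0.294) and Ext1 (0.315), which encodes an enzyme that builds heparan sulfate chains. For Xbp1 they were Lamp2 (0.127), a lysosomal membrane protein gene, Ngly1 (0.129) and Tm9sf3 (0.135). For Creb3l1 they were Cemip (0.156), Adgre5 (0.169) and Zfp383 (0.177). Among the members themselves the closest profiles were those of Xbp1 and Sec23a (0.314), Sec23a and Kdelr2 (0.332), Xbp1 and Hsp90b1 (0.371) and Sec24d and Kdelr3 (0.374). The farthest apart were Creb3l2 and Sec23a (0.877).

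Other genes of the pathway, 161 measured in 7 lists chosen by function, were also measured; they were chosen with earlier results of these data known. In condyle against whole body 45 were higher and 5 lower (28% and 3.11%), where 9.34% and 3.84% of all genes were. The shares of all genes, here and below, include genes at background, while at most 2 genes of any list were at background on every array. In a fit of the 11185 genes above background alone, 2135 genes were higher and 771 lower, and the lists were not counted in it. The median difference of the 161 was 0.59, beside -0.03 over all genes and 0.29 over the genes above background. After quantile normalization 22 were higher and 5 lower (13.7% and 3.11%, beside 4.52% and 4.45% of all genes; median 0.34). After scaling to the 75th percentile 42 were higher and 21 lower (26.1% and 13%, beside 8.02% and 39.3%; median 0.20). In the COPI coat and retrieval list 9 of 19 were higher as deposited, with a median of 0.74, and 3 after quantile normalization. Copa, which encodes a coat subunit, was higher by 2.30 ± 0.19 (adjusted p = 0.000816, limma), at 1500, 904 and 1190 in condyle against 274, 217 and 228 in whole body. Arfgap1, which encodes a regulator of coat release, was higher by 2.60 ± 0.64 and Kdelr1, the remaining KDEL receptor gene, by 2.16 ± 0.55, both past the threshold as deposited and not after quantile normalization (adjusted p = 0.0623 and 0.0757).

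In the COPII list 10 of 30 were higher and 1 lower in condyle than in whole body (33.3% and 3.33%, beside 9.34% and 3.84% of all genes), and 2 and 0 after quantile normalization. Sec31a, whose product joins that of Sec13 in the outer cage, was at least 4.50-fold higher (adjusted p = 0.0353, limma; 0.139 after quantile normalization), and Ergic3 and Ergic1, genes of proteins that cycle between the endoplasmic reticulum and the Golgi, were higher by 1.95 ± 0.40 and 1.90 ± 0.46 (adjusted p = 0.0623 and 0.0569 after it). Of 29 genes for chaperones and folding 7 were higher (24.1%) and 0 lower, and 3 and 1 after quantile normalization. They include Pdia3, a disulfide isomerase gene, at least 3.05-fold (adjusted p = 0.0649 after quantile normalization), the oxidase gene Ero1a by 2.02 ± 0.23, and Calr, the calreticulin gene, by 1.82 ± 0.37. Of 23 translocation genes 6 were higher (26.1%) and 1 lower, and 3 and 1 after quantile normalization, led by Sec61a2, a channel subunit gene, at least 11.9-fold (adjusted p = 0.000816), Srpr by 1.88 ± 0.36 and Sec11a by 1.52 ± 0.18. Of 30 Golgi genes 7 were higher (23.3%; 6 after quantile normalization), among them Ykt6 by 1.78 ± 0.19 and Golgb1 by 1.55 ± 0.15, and 2 lower, among them Scfd1, a SNARE regulator gene, which fell by 1.71 ± 0.33.

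Of 14 genes for degradation from the endoplasmic reticulum 3 were higher in condyle than in whole body (21.4%, beside 9.34% of all genes): Ube2j1 by 1.78 ± 0.25, Syvn1 by 1.48 ± 0.32 (adjusted p = 0.125 after quantile normalization) and Vcp by 1.11 ± 0.20. Of 16 genes for sensors and factors of the unfolded protein response 3 were higher (18.8%), among them Nucb1 by 1.93 ± 0.17 and Crebzf by 1.71 ± 0.21, and Creb3l3, a CREB3-like factor gene of liver and gut, was at least 2.90-fold lower. With condyle array 3 and fossa array 1 left out, 32 of the 161 genes were higher and 2 lower (19.9% and 1.24%, beside 7.36% and 2.84% of all genes).

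In fossa against whole body 14 of the 161 genes were higher and 18 lower (8.70% and 11.2%, beside 3.99% and 15.6% of all genes). In the fit of the 11185 genes above background alone, 657 genes were higher and 2447 lower, and the lists were not counted in it. The median of the 161 was 0, beside -0.11 over all genes and -0.29 over the genes above background. The split turned to 28 higher and 3 lower after quantile normalization (17.4% and 1.86%, beside 8.09% and 8.98% of all genes), so the balance of directions in fossa depends on the scaling. Copa (1.47 ± 0.19), Copz2 (2.39 ± 0.41) and Copg2 (1.62 ± 0.39) of the COPI coat were higher, also after quantile normalization. So were Sec61a2, at least 5.02-fold, Sec16b, which encodes a scaffold of exit sites, at least 3.34-fold, Pdia3, at least 2.83-fold, and Hyou1, a chaperone gene, by 1.33 ± 0.22. Ykt6, Nucb1, Vcp, Crebzf and Ergic3 were higher by 0.76 to 1.76. Of the genes that fell, Scfd1 by 2.23 ± 0.33, Use1 by 1.27 ± 0.19 and Creb3l3 (at least 2.81-fold lower) passed after quantile normalization too. The signal peptidase genes Spcs2 and Spcs3, and Derl2, Dnajb9 and Ergic2, fell by 1.11 to 1.71 as deposited and had adjusted p = 0.053 to 0.104 after it. Derl3 was at least 1.17-fold lower as deposited and had adjusted p = 0.0748 (limma) after quantile normalization. It was above background on 0 fossa arrays and 1 whole body array.

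In condyle against fossa 38 of the 161 genes were higher (23.6%) and 0 lower, beside 16.8% and 2.13% of all genes. In the fit of the 11185 genes above background alone, 3114 genes were higher and 88 lower. The lists were not counted in that fit, so no excess over expressed genes is read from these shares. The median of the 161 was 0.61, beside 0.60 over the genes above background. After quantile normalization 0 were higher and 2 lower (1.24%, beside 3.76% and 2.72% of all genes), and after scaling to the 75th percentile 4 and 15 (2.48% and 9.32%, beside 3.93% and 35.3%). As deposited, Sec31a was at least 4.57-fold and Sec22a at least 3.35-fold higher in condyle. Ero1a was higher by 1.88 ± 0.23 and Ctage5, a gene of collagen export at exit sites, by 1.71 ± 0.28. Mbtps1, which encodes a protease that cuts CREB3-like factors, was higher by 0.98 ± 0.21. The rest of the largest were Canx, Calr, Arf3, Copz1, Gbf1, Klhl12, Sec61a2, Srp72, Ube2g2, Sel1l, Ube2j1, Cog6 and Nucb1, with differences of 0.96 to 1.52, and Tram2 (at least 2.23-fold), Gorasp1 (at least 2.06-fold) and Atf6b (at least 1.12-fold), whose difference of 0.56 turned to -0.10 after scaling to the 75th percentile. None of the 21 genes named here passed after quantile normalization. Without condyle array 3 and fossa array 1 the count was 11 higher (6.83%, beside 8.66% of all genes) and 0 lower.

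**Figure D5:**
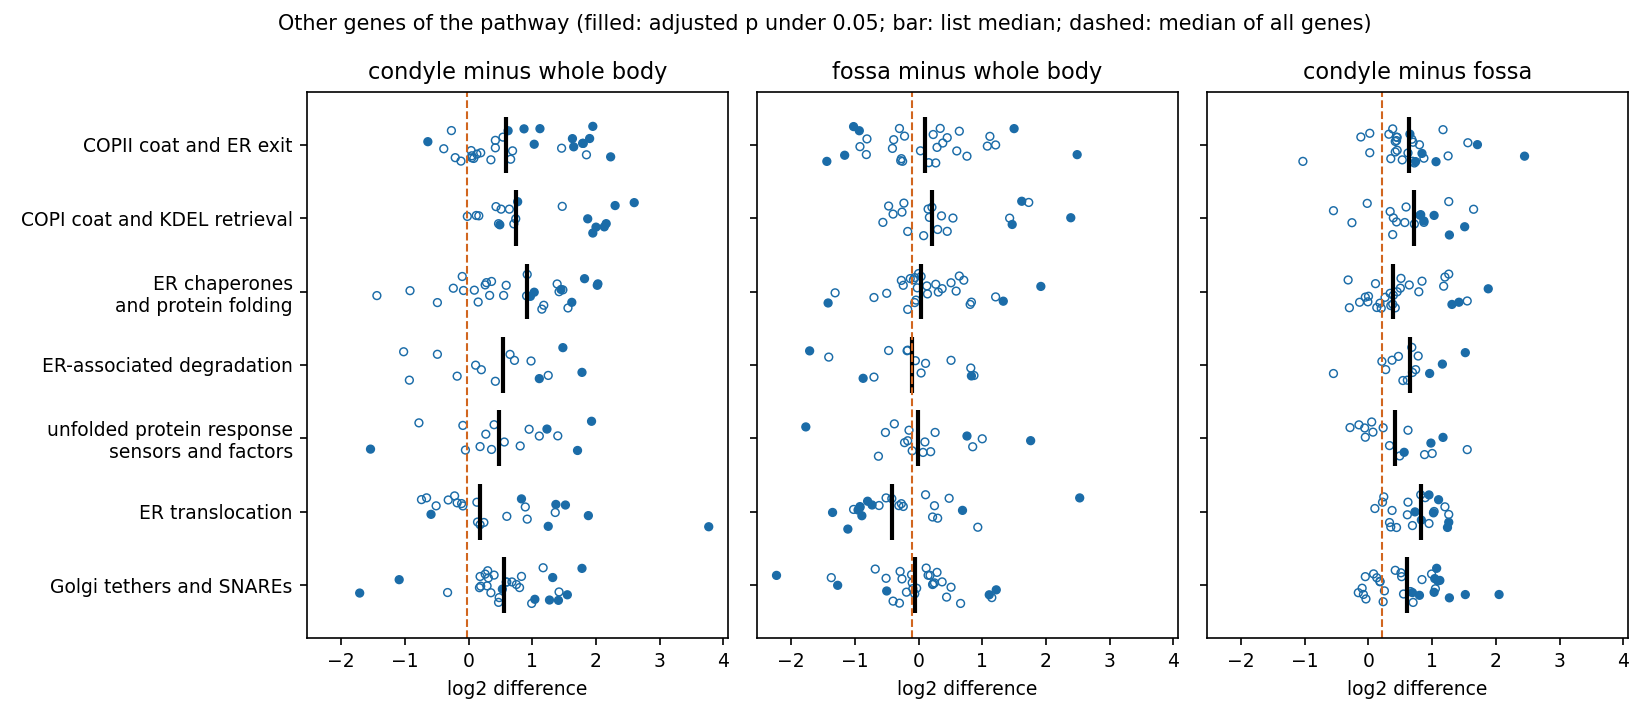
Log2 differences of the 161 other genes of the pathway in 7 lists and 3 comparisons, 1 point per gene; filled points have an adjusted p under 0.05, black bars are list medians and the dashed line is the median of all genes. In condyle against whole body the list medians run from 0.18 to 0.91, and in fossa against whole body from -0.42 to 0.21.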

How the data were processed

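RNA from 9 samples was hybridised as biotin-labelled cRNA to 1 Affymetrix array each, per the labels' protocols. The deposited table holds linear intensities from 3.25 to 67159, as the values show. Per the submitters' processing notes limma was used, with no version or role; background correction, normalization and probe set summary are not given in the sources used here. The deposited normalization was kept and values were taken to log2 with a floor of 1, which 0 values were under. Of 45101 probe sets, 64 were controls, 34945 had 1 gene symbol, 932 several and 9160 none in the platform annotation; the RefSeq table changed 0 symbols.

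Genes were tested with limma 3.58.1 in R 4.3.3 (lmFit, eBayes; 6 residual and 1.12 prior degrees of freedom); probe sets were tested in a second fit of the same form. The script was tested on simulated data. Where the lower group had fewer than 3 arrays above background, the fold is "at least", computed against the background limit or that group's own signal, whichever is greater. The members, the lists and the rule for named genes (per list and comparison the 3 largest differences past the threshold; 3 nearest profiles per factor) were chosen with earlier results of these data known. Promoters and motifs were read with Python 3.11.15. Alternatives were other scalings, floors, filters, probe set rules, variance models, array weights, a replicate block and arrays left out. The number of arrays limits the precision.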

Additional observations from a re-analysis of the deposited data

How the results depend on the processing

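With 3 arrays a group, the number of members called depended on single settings. Condyle against whole body held 1 member as deposited, 0 after quantile normalization, 2 after centring on the median or without genes at background, 5 with array weights, and 0 to 2 when 1 array was left out. Condyle against fossa held 1, then 0 after quantile normalization or scaling to the 75th percentile, 3 with array weights and 0 to 1 with 1 array left out. Fossa against whole body held 0 throughout these settings. The F test called 1, then 0 after quantile normalization or scaling to the 75th percentile, 5 with array weights and 0 to 2 with 1 array left out. With condyle array 3 and fossa array 1 both left out, chosen after seeing the data, these counts were 5 for condyle against whole body, 2 for condyle against fossa and 4 for the F test. Calls among the 18 probe sets over the 3 comparisons were 4 as deposited, 2 after quantile normalization and 9 without those arrays.

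Deviations of same-numbered arrays from their group means correlated at r from -0.435 to 0.146, and those of other pairs at -0.172 to 0.444. Of 9 arrays, 4 correlated best with their own number. This does not decide whether the numbers pair the samples, since deviations within so small a group are tied to each other. The embryo behind each sample is not given. With the replicate number as a block, 0 members were called in condyle against whole body, 0 in condyle against fossa and 0 by the F test (Sec13 adjusted p = 0.0728 and 0.0616, limma).

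Among the 10 members, the signs that turned all belong to values short of the threshold. After quantile normalization condyle minus whole body was -0.07 for Sec23a; fossa minus whole body was 0.02 for Xbp1, 0.06 for Sec23a, 0.18 for Hsp90b1 and 0.24 for Kdelr2; condyle minus fossa was -0.47 for Creb3l1, -0.13 for Sec23a and -0.18 for Kdelr3. After scaling to the 75th percentile condyle minus whole body was -0.29 for Xbp1, -0.35 for Sec23a and -0.01 for Hsp90b1, and condyle minus fossa was -0.58 for Creb3l1, -0.02 for Xbp1, -0.14 for Sec23a, -0.06 for Hspa5 and -0.14 for Kdelr3. With the mean of all probe sets, condyle minus whole body was -0.91 for Hsp90b1 and fossa minus whole body 0.01 for Xbp1, -0.24 for Hspa5 and 0.53 for Kdelr2. With array weights Sec23a was -0.06 in condyle and Creb3l2 -0.04 in fossa, both against whole body. Without both arrays Sec23a was 0.02 and Kdelr2 0.30 in fossa against whole body.

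With 1 array left out, condyle minus whole body ran from -0.02 to 0.32 for Xbp1 and -0.12 to 0.18 for Sec23a. Condyle minus fossa ran from -0.24 to 0.35 for Creb3l1. Fossa minus whole body ran from -0.09 to 0.38 for Creb3l2, -0.15 to 0.26 for Sec13, -0.86 to 0.02 for Sec23a, -0.13 to 1.00 for Sec24d and -0.72 to 0.30 for Kdelr2. The cause was not tested.

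Over all genes, calls in condyle against fossa were 3440 as deposited, 1178 after quantile normalization, 7142 after scaling to the 75th percentile, 2137 with a common floor and 5632 with array weights. Condyle against whole body had 2398, 8602 after scaling to the 75th percentile and 5022 with array weights. Fossa against whole body had 3559, 2296 with a common floor and 6514 with array weights. The F test had 5119, 3152 after quantile normalization, 9778 after scaling to the 75th percentile and 8704 with array weights. The share of higher calls in fossa against whole body was 20.4% as deposited, 47.4% after quantile normalization, 44.5% after scaling to the 75th percentile and 44.7% after centring. In condyle against fossa it was 88.8%, 58.1%, 10% and 83.2% in the same order. With 1 array left out, calls ran from 1470 to 2591 in condyle against whole body, 2343 to 3352 in fossa against whole body and 2086 to 3515 in condyle against fossa.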
